A study of Mus musculus with 17 samples.

Results

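The primary cilium is a single antenna-like organelle on the surface of most cells of the mouse embryo, and 44 genes that build it or move its cargo were followed here through 17 whole embryos. The genes were taken by name from a fixed list: 11 subunits of intraflagellar transport complex B (IFT-B), 6 of complex A (IFT-A), 6 motor subunits, 8 genes of the BBSome and its recruiting GTPase, 5 of ciliary membrane traffic, and 8 of the transition zone and ciliary base. All 44 symbols were found among the 41709 gene symbols of the table. The embryos were C57BL/6J and fell into 4 groups. At embryonic day 9.5 (E9.5) there were 4 wild types (Disp1_WT) and 4 embryos with a CS allele of Disp1 over an INDEL allele (Disp1_CS_INDEL), from Disp1 CS/+ mothers and INDEL/+ fathers. At E8.5 there were 4 Myo10+/+ embryos (Myo10_WT) and 5 Myo10 m1J/m1J embryos (Myo10_m1J), from intercrosses of m1J/+ mice, which the sample titles call MYOX WT and MYOX MUT. Each embryo was 1 library. The labels say neither what the CS, INDEL and m1J alleles change nor which embryos shared a litter.

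Intraflagellar transport carries cargo along the axoneme in trains: IFT-B trains are pulled to the tip by kinesin-2, and IFT-A with the dynein-2 motor brings them back. The BBSome rides these trains and removes membrane proteins from the cilium, and the transition zone at its base is the gate that sorts what enters. In the embryo this traffic carries the Hedgehog signal, since the receptor Ptch1 leaves the cilium and Smo enters it upstream of the Gli factors. Disp1 releases the Hedgehog ligand from the cells that make it, and Myo10 is the unconventional myosin of filopodia.

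The measured unit was TPM, a transcript abundance that corrects for length and is scaled to 1 fixed total per library, so levels may be compared between genes, but the read depth behind them is unknown. Of the targeted genes, Myo10 stood at 25.8 ± 6.02 TPM in its 4 wild types and at 3.61 ± 0.885 in its 5 mutants (mean ± SD, exact two-sided permutation p = 0.0159, the smallest this design can give). Disp1 stood at 17.5 ± 1.74 TPM in its 4 wild types and at 14.3 ± 1.98 in its 4 mutants (exact two-sided permutation p = 0.0571), which misses 0.05. Disp1 was also lower in the Myo10 mutants, at 7.04 ± 0.647 TPM beside 8.84 ± 1.10 in their wild types (exact two-sided permutation p = 0.0159). In that comparison the median gene was lower too, and 0.992% of all genes separated the groups as Disp1 did, in either direction. In the test over all genes used below, Disp1 was not called there (limma adjusted p = 0.473). Structural RNAs (7SL, 7SK and the RNAs of RNase MRP and RNase P) made up 29.7% to 44.5% of all TPM in the 9 E8.5 embryos and 0.00524% to 0.0132% in the 8 E9.5 embryos, although the labels give the same library kit for both. That share lowers every other gene at E8.5, so the ages are compared below on 3 scalings: as deposited, after median-of-ratios scaling (the median gene held equal between libraries), and after leaving out structural RNA, mitochondrial and globin genes. Markers of other tissues also moved: all 11 primitive erythroid genes were higher at E9.5 and all 11 yolk sac endoderm genes lower. The summed level of the erythroid list was 36278 to 48316 TPM in Disp1_WT and 318 to 1967 in Myo10_WT, that of the yolk sac list 55.9 to 1003 and 838 to 2592, and their part in the age differences was not tested. Disp1_WT replicate 3 held 1003 summed TPM of the yolk sac list and 742.7 of the decidua and trophoblast list, where the other E9.5 embryos held at most 94.0 and 29.9. At E8.5, Myo10_m1J replicate 2 held 216.2 summed TPM of the decidua and trophoblast list, where the other embryos of that age held at most 28.2. Markers of the embryo proper were present in every group, with Sox2 of neural progenitors at 125 ± 9.73 and 53.0 ± 10.5 TPM and Twist1 of mesenchyme at 158 ± 9.42 and 42.8 ± 5.67 TPM in wild types of E9.5 and of E8.5.

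In these embryos 43 of the 44 genes reached at least 1 TPM in every library. Below, levels are mean TPM ± SD in the order Disp1_WT, Disp1_CS_INDEL, Myo10_WT and Myo10_m1J (n = 4, 4, 4 and 5). Over all 17 embryos the highest means were those of Arl3 (53.3 TPM), Kifap3 (39.6) and Ift20 (34.5). The lowest were Kif17 (0.183), Rpgrip1l (2.80) and Tmem67 (2.97). Between the E9.5 wild types and mutants the 44 means lay close together, with the mutant mean the higher one for 32 genes. Between the E8.5 wild types and mutants the mutant mean was the lower one for all genes but Kif17. Over the whole table, by the log2 differences tested below, 7480 of 13294 genes were higher in the E9.5 mutants. By the same measure 11807 of 12560 genes were lower in the E8.5 mutants.

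**Figure D1:**
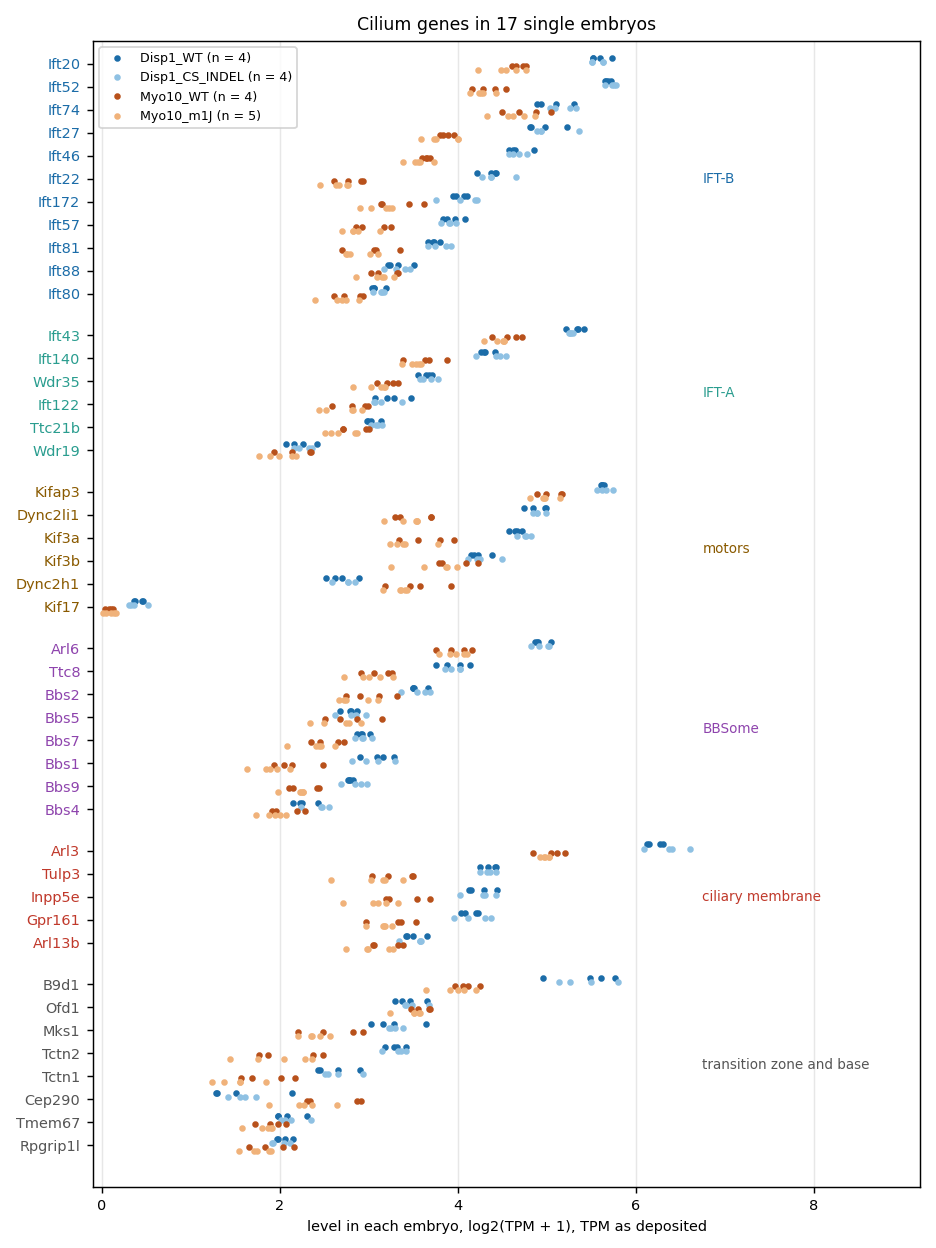
Level of each of the 44 genes in each of the 17 embryos, as log2(TPM + 1) of the deposited values, grouped by complex. Each point is 1 embryo. The blue E9.5 points lie to the right of the orange E8.5 points for most genes, and Dync2h1 and Cep290 show the opposite order, while the wild-type and mutant points of the same age intermingle.

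In IFT-B the highest levels at E9.5 were those of Ift52, a core subunit, at 50.4 ± 1.04, 52.1 ± 1.93, 19.5 ± 2.34 and 18.4 ± 1.45 TPM. Next was Ift20, which also works at the Golgi in sending membrane cargo to the cilium, at 47.4 ± 3.35, 46.5 ± 2.31, 24.9 ± 1.30 and 22.4 ± 3.18 TPM. The tubulin-binding partners Ift74 and Ift81 differed, Ift74 at 32.6 ± 4.55, 35.4 ± 3.41, 26.7 ± 4.48 and 23.9 ± 3.43 TPM and Ift81 at 12.3 ± 0.530, 13.0 ± 1.14, 7.37 ± 1.52 and 6.41 ± 0.868 TPM. The 2 small GTPases of the complex are Ift27, at 30.4 ± 4.33, 32.0 ± 5.44, 13.6 ± 0.730 and 13.2 ± 1.78 TPM, and Ift22, at 19.6 ± 1.37, 20.5 ± 2.52, 6.04 ± 0.725 and 5.31 ± 0.540 TPM. Ift46, another core subunit, was measured at 24.6 ± 2.23, 24.4 ± 1.53, 11.5 ± 0.318 and 10.8 ± 1.03 TPM. The peripheral subunits are Ift172, the largest protein of the complex, at 15.3 ± 0.837, 15.7 ± 2.35, 9.23 ± 1.73 and 7.75 ± 0.894 TPM, Ift57 at 14.4 ± 1.19, 13.96 ± 0.692, 7.33 ± 1.09 and 6.35 ± 0.827 TPM and Ift80 at 7.502 ± 0.432, 7.75 ± 0.326, 5.96 ± 0.739 and 5.42 ± 0.786 TPM. Ift88, the core scaffold whose loss removes cilia, was at 9.04 ± 0.969, 9.14 ± 0.877, 8.18 ± 0.962 and 7.67 ± 0.924 TPM, the smallest step between the ages in this complex as deposited.

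IFT-A returns trains to the base and brings membrane receptors in together with Tulp3. Its small subunit Ift43 was its most abundant RNA, at 39.3 ± 2.35, 37.6 ± 0.512, 23.0 ± 2.41 and 21.0 ± 1.399 TPM. Ift140 followed at 19.0 ± 0.935, 20.4 ± 2.08, 11.6 ± 1.77 and 10.4 ± 0.650 TPM and Wdr35 at 11.5 ± 0.550, 11.7 ± 0.7997, 8.36 ± 0.645 and 7.40 ± 0.842 TPM. Ift122 was at 8.63 ± 1.13, 7.98 ± 0.928, 6.19 ± 0.866 and 5.56 ± 0.936 TPM and Ttc21b at 7.18 ± 0.410, 7.53 ± 0.306, 6.22 ± 0.790 and 5.48 ± 0.718 TPM. Wdr19 was the lowest subunit, at 3.70 ± 0.4996, 3.82 ± 0.318, 3.60 ± 0.606 and 3.00 ± 0.473 TPM, with almost no step between the ages.

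Among the motors, the kinesin-2 subunits are Kifap3, the non-motor partner, at 48.4 ± 0.602, 49.2 ± 2.78, 32.4 ± 3.14 and 30.5 ± 2.597 TPM, Kif3a at 24.2 ± 1.07, 26.0 ± 1.28, 11.8 ± 2.40 and 9.87 ± 1.68 TPM and Kif3b at 17.9 ± 1.43, 18.4 ± 2.20, 14.95 ± 2.32 and 12.4 ± 2.54 TPM. Kif17, the homodimeric kinesin-2 of specialised cilia, was low throughout. Its E9.5 embryos ranged from 0.237 to 0.431 TPM and its E8.5 embryos from 0.0102 to 0.117. It failed the level filter (at least 1 TPM in at least 4 libraries) and was tested in no comparison, so 43 genes were tested throughout. The dynein-2 subunits went opposite ways between the ages, the light intermediate chain Dync2li1 at 28.8 ± 2.40, 29.0 ± 1.33, 10.5 ± 1.75 and 9.87 ± 1.16 TPM and the heavy chain Dync2h1 at 5.46 ± 0.724, 5.70 ± 0.489, 10.8 ± 2.56 and 9.15 ± 0.735 TPM.

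Among the BBSome genes the highest was Arl6, the GTPase that recruits the complex to membranes, at 29.5 ± 1.81, 29.8 ± 2.00, 14.8 ± 1.94 and 14.7 ± 1.33 TPM. Ttc8 came next at 14.6 ± 1.81, 14.6 ± 0.921, 7.67 ± 0.950 and 7.13 ± 1.16 TPM, and Bbs2 at 10.7 ± 0.703, 10.8 ± 1.13, 7.19 ± 1.43 and 6.26 ± 0.990 TPM. Bbs1, which binds Arl6, was at 7.67 ± 0.925, 7.31 ± 1.18, 3.50 ± 0.765 and 2.73 ± 0.451 TPM. Bbs7 was at 6.62 ± 0.316, 6.66 ± 0.434, 4.87 ± 0.700 and 4.33 ± 0.692 TPM, Bbs9 at 5.91 ± 0.110, 6.27 ± 0.632, 3.88 ± 0.589 and 3.59 ± 0.364 TPM and Bbs5, which binds phosphoinositides, at 5.89 ± 0.378, 6.05 ± 0.711, 6.07 ± 1.37 and 5.37 ± 0.992 TPM. Bbs4 was at 3.81 ± 0.395, 4.42 ± 0.494, 3.28 ± 0.536 and 2.82 ± 0.334 TPM, the lowest of these genes in every group but Myo10_m1J, where Bbs1 was lower.

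Of the ciliary membrane genes, Arl3, the GTPase that releases lipid-anchored cargo inside the cilium, was at 73.6 ± 4.62, 82.5 ± 12.03, 32.4 ± 3.46 and 30.7 ± 0.970 TPM. Arl13b, which activates Arl3, was at 10.3 ± 0.870, 10.5 ± 0.928, 8.26 ± 1.12 and 7.32 ± 1.20 TPM. Tulp3, the carrier of receptors such as Gpr161, was at 19.6 ± 1.14, 19.3 ± 1.04, 8.98 ± 1.52 and 7.51 ± 1.64 TPM. Gpr161 itself, the receptor that restrains Hedgehog signalling through cAMP, was at 16.6 ± 1.17, 17.3 ± 2.37, 8.95 ± 1.54 and 7.88 ± 0.643 TPM. Inpp5e, the phosphatase that sets the phosphoinositide makeup of the ciliary membrane, was at 18.2 ± 2.00, 18.3 ± 2.19, 9.75 ± 1.81 and 7.51 ± 1.30 TPM.

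In the transition zone and base, B9d1 was the most abundant gene at E9.5, at 43.9 ± 10.04, 42.7 ± 9.15, 16.2 ± 1.42 and 14.8 ± 2.19 TPM. Ofd1, of the distal centriole and satellites, was at 9.95 ± 1.17, 10.3 ± 1.02, 11.1 ± 0.865 and 10.2 ± 1.01 TPM. Mks1, which works with B9d1, was at 8.83 ± 1.90, 8.79 ± 0.485, 5.24 ± 1.38 and 4.25 ± 0.484 TPM. The tectonics Tctn2 and Tctn1 were at 8.88 ± 0.691, 8.999 ± 0.782, 3.47 ± 1.10 and 3.05 ± 1.00 TPM and at 5.15 ± 0.979, 5.38 ± 0.883, 2.68 ± 0.712 and 1.88 ± 0.459 TPM. The membrane protein Tmem67 was at 3.27 ± 0.472, 3.42 ± 0.478, 2.79 ± 0.377 and 2.52 ± 0.325 TPM and Rpgrip1l at 3.11 ± 0.250, 3.00 ± 0.277, 2.82 ± 0.579 and 2.39 ± 0.328 TPM. Cep290, which links microtubules to the membrane in this zone, was at 2.03 ± 0.928, 2.00 ± 0.271, 5.21 ± 1.41 and 3.89 ± 0.924 TPM.

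Cilium genes are known to share promoter motifs for RFX transcription factors, and the promoter table allowed a look at these genes' own sequences. RefSeq windows on build GRCm38.p6, from 250 bases before to 50 after the annotated start, were found for 39 of the 44 genes (42 windows). The hexamer GTTGCC, searched on both strands, was in 17 of these windows (40.5%) and in 12.5% of all 32851 windows of the same length. The palindromic arrangement GTNNCCNNGGNNAC was in 9 of them (21.4%) and in 1.88% of all windows. Both spellings were picked with these counts in view, so the shares describe the windows and test nothing. A palindrome whose left arm is GTTGCC holds the hexamer too, so the counts overlap, and a match is a description of letters, not of a bound site. The genes with a palindrome were Bbs7, Wdr19, Tctn1, Tctn2, Ift22, Bbs4, Mks1, Ift57 and Bbs1. They came from IFT-B, IFT-A, the BBSome and the transition zone. The palindrome was in 4 of 16 genes with a window that were higher at E9.5 on all 3 scalings described above, in 2 of 10 that were lower on both rescaled tables and in 3 of the 13 others. Those printed here, with the palindrome in capitals, are 4 from genes that were higher at E9.5 on all 3 scalings (Ift22, Ift57, Tctn2, Bbs1) and 2 from genes that were lower at E9.5 on both rescaled tables (Wdr19, Bbs4). They lie at chr5:136908109-136908138 (Ift22, plus strand), chr16:49699199-49699228 (Ift57, plus), chr5:124598679-124598708 (Tctn2, plus), chr19:4906605-4906634 (Bbs1, minus), chr5:65199654-65199683 (Wdr19, plus) and chr9:59353464-59353493 (Bbs4, minus).
Ift22: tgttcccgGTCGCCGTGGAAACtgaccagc
Ift57: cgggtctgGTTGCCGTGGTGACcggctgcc
Tctn2: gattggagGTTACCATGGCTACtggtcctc
Bbs1: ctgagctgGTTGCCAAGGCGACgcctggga
Wdr19: tttgcacgGTCTCCTGGGTGACgagaacgc
Bbs4: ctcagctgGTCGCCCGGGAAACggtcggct
The capitals begin 33 bases before the annotated start in Ift22, 87 in Ift57, 62 in Tctn2 and 34 in Wdr19. In Bbs1 and Bbs4 they begin 1 and 23 bases after it, within the transcript. Ift22 holds another palindrome, which begins 63 bases before its start, at chr5:136908079-136908108.
Ift22, upstream copy: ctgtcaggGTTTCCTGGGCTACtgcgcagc

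Between the Disp1_CS_INDEL embryos and their wild types no cilium gene passed the test. None of the 43 tested genes was called (limma on log2(TPM + 1), Benjamini-Hochberg adjusted p at or under 0.05 over 13294 genes), where 0.0301% of all genes were called. None reached an unadjusted p under 0.05 either, where 2.26% of all genes did. The differences, mutant minus wild type, ran from -0.10 to 0.17 on the log2 scale with a median of 0.02, beside a median of 0.01 over all genes. All 43 intervals (95%) lay within 0.5 of 0 on that scale, as did those of 12206 of the 13294 genes. In no cilium gene did the 4 mutants and the 4 wild types separate as deposited, where 1.57% of all genes did. After median-of-ratios scaling 1 did, Kif3a, higher in the mutants (19.0 to 19.9 against 17.9 to 18.5 rescaled TPM), where 1.96% of all genes separated. Without Disp1_WT replicate 3, the embryo with yolk sac and decidual transcripts, the median was 0.01 and again no gene was called. Whole embryos cannot tell fewer ciliated cells from less RNA per cell.

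The 5 genes of smallest p in that comparison came from 5 different roles. Bbs4 was 3.68, 4.37, 3.74 and 3.45 TPM in the wild types and 4.58, 4.53, 4.86 and 3.71 in the mutants, so the lowest mutant lay among the wild types. Its difference was 0.17 (SE 0.0995, interval -0.05 to 0.39, limma adjusted p = 1.00). Arl3 was 76.6, 78.4, 70.1 and 69.1 TPM in the wild types and 81.8, 96.6, 84.2 and 67.2 in the mutants, where 3 mutants exceeded all wild types and the other fell below them. Its difference was 0.15 (SE 0.0966, interval -0.06 to 0.37). Kif3a differed by 0.10 (interval -0.03 to 0.23), Ift74 by 0.12 (-0.10 to 0.35) and Ift140 by 0.10 (-0.08 to 0.27), all with a limma adjusted p of 1.00. By complex, the median difference lay between 0.01 (BBSome) and 0.04 (IFT-B).

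Between the Myo10_m1J embryos and their wild types every cilium gene was nominally lower, by about as much as the median gene. None of the 43 genes was called (limma adjusted p at or under 0.05, over 12560 genes), where 0.00796% of all genes were, which is 1 gene, Myo10. Inpp5e alone had an unadjusted p under 0.05, where 6.8% of all genes did. All 43 differences were negative, as were those of 11807 of the 12560 genes. The 43 ran from -0.35 to -0.01, with a median of -0.15, and the median over all genes was -0.16. After median-of-ratios scaling the medians were 0.01 for the cilium genes and 0.00 for all genes, so the common sign went with the shift of the whole table. With structural RNA, mitochondrial and globin genes left out, the medians were -0.066 for the cilium genes and -0.0739 for all genes, so part of the shift remained. Structural RNAs were 29.7% to 36.9% of TPM in the wild types and 32.2% to 44.5% in the mutants, and their part in the shift was not tested. The intervals (95%) were wider than at E9.5: 32 of 43 lay within 0.5 of 0 and all 43 within 1. Of all 12560 genes, 7448 had an interval within 0.5 of 0 and 12207 within 1. No cilium gene separated the 4 wild types from the 5 mutants as deposited, where 0.992% of all genes did. After median-of-ratios scaling 1 did, Ift88, higher in the mutants (10.01 to 10.7 against 9.58 to 9.80 rescaled TPM), where 1.09% of all genes separated.

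Inpp5e was 11.9, 10.7, 8.35 and 8.13 TPM in the E8.5 wild types and 8.14, 9.05, 7.25, 5.54 and 7.59 in the mutants, and the 2 lower wild types lay among the mutants. Its difference was -0.34 (SE 0.152, unadjusted p = 0.0463, limma adjusted p = 0.473). After median-of-ratios scaling it was -0.17 with a smaller SE as well (SE 0.0762, limma adjusted p = 0.788). Tctn1 was 3.50, 3.03, 1.95 and 2.23 TPM in the wild types and 1.93, 2.58, 1.93, 1.37 and 1.59 in the mutants. Its difference was -0.35 (interval -0.70 to 0.01). Cep290 differed by -0.34 (interval -0.73 to 0.06), Bbs1 by -0.26 (-0.58 to 0.05) and Kif3b by -0.26 (-0.61 to 0.08), each with a limma adjusted p of 0.473. After median-of-ratios scaling these 4 differences were -0.22, -0.19, -0.12 and -0.09, all smaller in size and with smaller SEs.

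**Figure D2:**
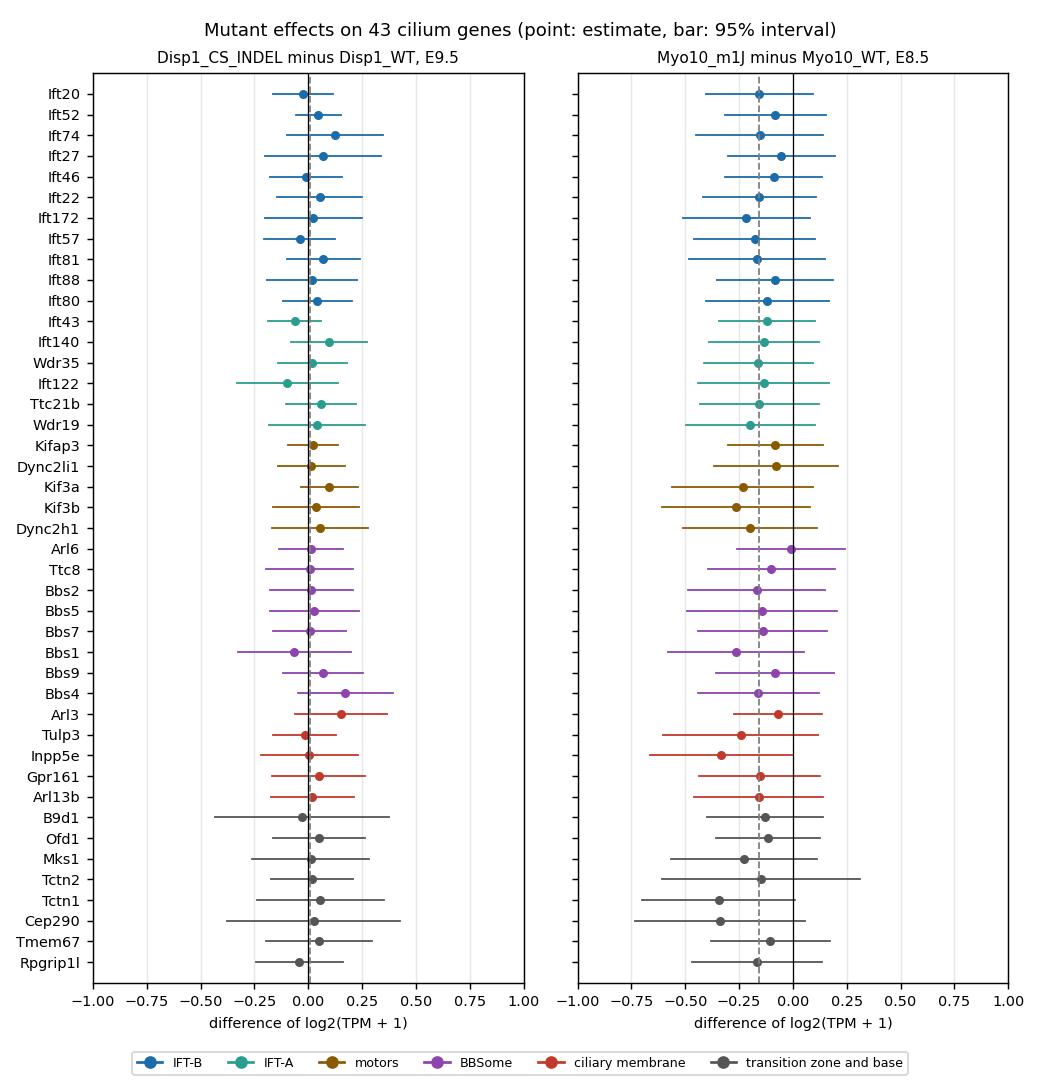
Difference of each of the 43 tested genes between mutants and wild types, in log2(TPM + 1), for Disp1 at E9.5 (left) and Myo10 at E8.5 (right). Points are limma estimates, bars 95% intervals, and the dashed line is the median of all genes. The Disp1 estimates scatter around 0, and the Myo10 estimates scatter around the dashed line at -0.16.

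The mutant effects were also tested against each other in a fit of all 17 embryos. None of the 43 genes was called for the Disp1 effect minus the Myo10 effect (limma adjusted p at or under 0.05), where 0.0216% of 13910 genes were. Bbs4 had an unadjusted p under 0.05, where 4.95% of all genes did, with a difference of effects of 0.33 (SE 0.154, limma adjusted p = 0.586). Kif3a (0.33), Tctn1 (0.40), Inpp5e (0.34) and Arl3 (0.22) came next, all with a limma adjusted p of 0.586. The median over the cilium genes was 0.18 and over all genes 0.16, and after median-of-ratios scaling they were 0.02 and 0.00.

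Between the wild types of the 2 ages most cilium genes differed, but how many rose depended on the scaling. As deposited, 31 of the 43 genes were higher at E9.5 and 2 were lower (limma adjusted p at or under 0.05 over 13397 genes), where 69.4% of all genes were higher and 10.2% lower. After median-of-ratios scaling 17 were higher and 16 lower, where 37.6% and 35.4% of all genes were. With structural RNA, mitochondrial and globin genes left out, 18 were higher and 10 lower, where 42.5% and 27.7% of all genes were. The median difference of the cilium genes was 0.68, 0.07 and 0.18 on the 3 scalings, beside 0.62, 0.02 and 0.12 for all genes, a shift close to that of the table as a whole. Age, colony, litter and the structural RNA share of the libraries cannot be told apart in this comparison. Because log2(TPM + 1) shrinks the change of low genes, ratios of mean TPM as deposited are given for several genes. Differences are given first as deposited and then, as the rescaled value, after median-of-ratios scaling.

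On all 3 scalings 17 genes were higher at E9.5, where 37.9% of 13191 genes were, and Dync2h1 and Cep290 were lower, where 10.2% were. Another 8 genes were lower at E9.5 on both rescaled tables without being called as deposited: Ift88, Ttc21b, Wdr19, Kif3b, Bbs4, Bbs5, Rpgrip1l and Ofd1. With Dync2h1 and Cep290 counted in, 10 genes were lower on both rescaled tables, where 27.5% of all genes were. For 4 genes, Ift80, Wdr35, Bbs7 and Arl13b, the call turned from higher as deposited to lower after median-of-ratios scaling, as it did for 7.81% of all genes. With structural RNA, mitochondrial and globin genes left out, none of these 4 was called. Without Disp1_WT replicate 3 the count as deposited was 29 higher and 2 lower.

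IFT-B held 6 of the 17: Ift20, Ift22, Ift27, Ift46, Ift52 and Ift57. Ift22 was 6.55, 6.67, 5.11 and 5.83 TPM in the E8.5 wild types and 19.8, 20.6, 20.4 and 17.6 in the E9.5 wild types, with a wide gap between them. Its mean rose 3.25-fold, with a difference of 1.55 (SE 0.110, limma adjusted p = 2.67e-07) as deposited and 0.95 after median-of-ratios scaling, the largest rise among the 43 genes on both of these scales. Ift52 was 22.4, 20.3, 16.9 and 18.5 TPM at E8.5 and 51.7, 49.4, 49.7 and 50.6 at E9.5, where the embryos hardly varied. Its difference was 1.33 (SE 0.0910, limma adjusted p = 2.16e-07) and 0.68 after median-of-ratios scaling. Ift20 rose 1.91-fold (difference 0.90, rescaled 0.26), Ift27 2.23-fold (1.09, rescaled 0.46) and Ift46 2.14-fold (1.03, rescaled 0.40). Ift57 had a difference of 0.89 and 0.29 rescaled. In the same trains Ift88 was 0.13 as deposited and -0.47 rescaled, and Ift74 0.28 and -0.36, neither called as deposited and both called lower after median-of-ratios scaling. Ift172 (0.69, rescaled 0.07) and Ift81 (0.68, rescaled 0.08) lay near the median of all genes on both scales.

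None of the 6 IFT-A genes was higher on all 3 scalings. Ift43 and Ift140 were called higher as deposited (0.75 and 0.68) and had 0.11 and 0.05 after median-of-ratios scaling, where neither was called. Ift122 (0.42) lost its call in the same way (-0.16). Wdr19 had 0.04 as deposited and -0.48 rescaled, and Ttc21b 0.18 and -0.39, both called lower only on the rescaled tables. The median of the complex after median-of-ratios scaling was -0.17, beside 0.26 for IFT-B, with no test between the complexes.

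The motors split. Dync2li1 was 12.04, 12.01, 9.22 and 8.81 TPM in the E8.5 wild types and 27.7, 30.5, 30.9 and 25.9 in the E9.5 wild types, a 2.73-fold rise. Its difference was 1.38 (SE 0.121, limma adjusted p = 1.31e-06) and 0.75 after median-of-ratios scaling. Dync2h1, the heavy chain of the same motor, was 14.2, 11.0, 8.10 and 10.1 TPM at E8.5 and 5.50, 6.44, 4.75 and 5.15 at E9.5, so that every E8.5 wild type exceeded every E9.5 wild type. It fell to 0.504 of its E8.5 level (difference -0.86, SE 0.159, limma adjusted p = 0.000431; -1.44 rescaled). Kif3a rose on all 3 scalings (0.99, rescaled 0.37), while its partner Kif3b was 0.25 as deposited, not called, and -0.38 rescaled. Kifap3 went from 32.4 ± 3.14 to 48.4 ± 0.602 TPM (0.57, rescaled -0.08).

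Of the BBSome, Bbs1, Ttc8 and Arl6 were higher on all 3 scalings. Arl6 was 15.8, 16.9, 12.5 and 14.1 TPM in the E8.5 wild types and 28.2, 32.2, 29.0 and 28.6 in the E9.5 wild types (0.95, limma adjusted p = 7.46e-06, rescaled 0.32). Bbs1, its binding partner, rose 2.19-fold in mean TPM (0.95, rescaled 0.40) and Ttc8 1.90-fold (0.84, rescaled 0.24). Bbs5 stood at 6.27, 7.88, 4.70 and 5.41 TPM at E8.5 and 6.29, 5.91, 5.38 and 5.97 at E9.5, where the ranges overlapped (-0.02, rescaled -0.59). Bbs2 and Bbs9 were called higher as deposited (0.53 and 0.51) and were -0.07 and -0.04 rescaled, not called.

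Of the 5 ciliary membrane genes 4 were higher on all 3 scalings. Arl3 was 36.0, 33.6, 27.7 and 32.2 TPM in the E8.5 wild types and 76.6, 78.4, 70.1 and 69.1 in the E9.5 wild types, 2.27-fold higher. Its difference was 1.16 (SE 0.0897, limma adjusted p = 4.93e-07; 0.51 rescaled). Tulp3 rose 2.18-fold (1.05, limma adjusted p = 1.14e-05, rescaled 0.44), and its cargo Gpr161 had 0.84 and 0.22 rescaled. Inpp5e had 0.84 and 0.23. Arl13b, the activator of Arl3, was the exception, with 0.30 as deposited and -0.30 after median-of-ratios scaling.

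In the transition zone, B9d1 was 14.7, 18.04, 16.3 and 15.6 TPM in the E8.5 wild types and 43.8, 53.6, 48.0 and 30.1 in the E9.5 wild types, of which replicate 4 was well below the rest. Its difference was 1.36 (SE 0.155, limma adjusted p = 1.02e-05; 0.72 rescaled). Tctn2 rose 2.56-fold in mean TPM (1.18, rescaled 0.62). Cep290 was 6.54, 6.31, 3.94 and 4.06 TPM at E8.5 and 1.45, 3.39, 1.85 and 1.43 at E9.5, where Disp1_WT replicate 2 stood apart and the groups still did not overlap. It fell to 0.390 of its E8.5 level (difference -1.05, SE 0.216, limma adjusted p = 0.000893; -1.54 rescaled). Ofd1 was -0.15 as deposited, not called, and -0.76 rescaled, and Tmem67 and Rpgrip1l were 0.17 and 0.12, not called, with -0.32 and -0.38 after median-of-ratios scaling, where all 3 were called lower. Tctn1 and Mks1 were called higher as deposited (0.75 and 0.66) and were 0.23 and 0.09 rescaled, not called.

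**Figure D3:**
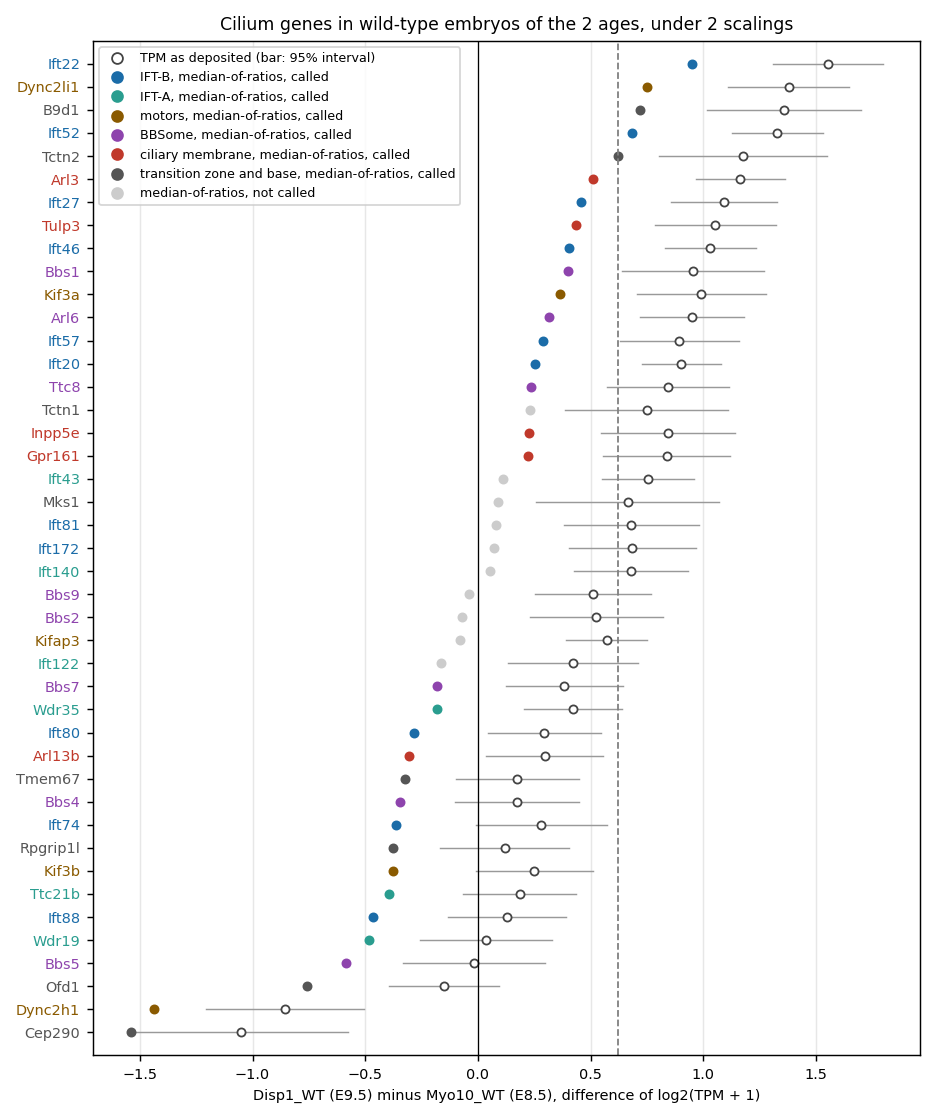
Difference of the 43 tested genes between wild types, E9.5 minus E8.5, in log2(TPM + 1), ordered by the rescaled value. Open points with 95% bars are the deposited TPM, filled points the median-of-ratios scaling (grey where not called), and the dashed line is the median of all genes as deposited, 0.62. The filled points fall on both sides of 0, from 0.95 for Ift22 to -1.54 for Cep290.

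With the mutants added, the order of the ages was read over all embryos. In 30 of the 43 genes all 8 E9.5 embryos lay above all 9 E8.5 embryos as deposited, where 61.6% of all genes did. The opposite order held for 1, Dync2h1, where 4.87% of all genes did. After median-of-ratios scaling the counts were 11 (all genes 28.5%) and 12 (25.6%). Dync2h1 in the mutants was 6.18, 5.80, 5.79 and 5.02 TPM at E9.5 and 9.18, 9.78, 9.31, 7.91 and 9.59 at E8.5, and Cep290 was 2.33, 1.93, 2.06 and 1.68 and 4.12, 5.23, 3.81, 2.67 and 3.63. Cep290 of Disp1_WT replicate 2 exceeded the lowest E8.5 mutant, which kept this gene out of the count.

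Dync2h1 and Cep290 are also the longest of these genes, and the age difference moved with transcript length across the whole table. By the longest coding transcript in GENCODE vM21, known for 42 of the 43 genes, Dync2h1 has 14.3 kb and Cep290 8.21 kb, and no other gene of the set exceeds 8 kb. Over the 42 genes, which share the same libraries, the difference as deposited and the log10 length had Pearson's r = -0.56 and Spearman's rho = -0.48. Over 12412 genes these were -0.23 and -0.29. In all genes the median difference stepped down from 0.89 below 2 kb to 0.70, 0.58 and 0.41 (2 to 3, 3 to 5 and 5 to 8 kb) and to 0.08 at 8 kb and over. Both genes lay below that last median, at -0.86 and -1.05, and Bbs5 (1.47 kb) lay below the median of its short class at -0.02. Among genes above 5 kb, Bbs1 (5.60 kb) and Gpr161 (6.86 kb) lay above their class at 0.95 and 0.84. Over the cilium genes alone the class medians were 1.02, 0.67, 0.47, 0.68 and -0.95, from the shortest class to the longest. They did not fall from 3 to 5 kb to 5 to 8 kb, and the longest class held only Dync2h1 and Cep290. The part of length in these differences was not tested.

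**Figure D4:**
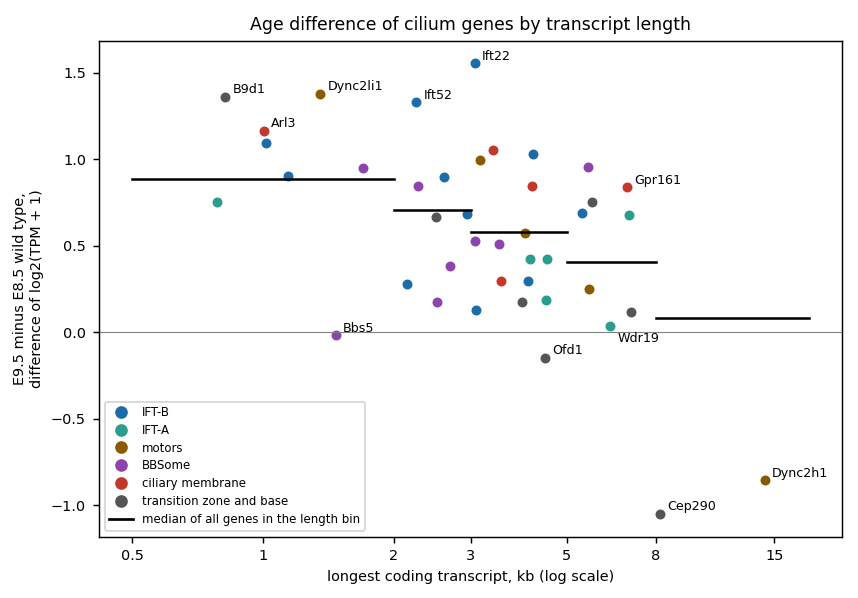
Age difference of the cilium genes, E9.5 minus E8.5 wild type in log2(TPM + 1) as deposited, against the longest coding transcript in kb on a log scale. Points are genes coloured by complex, and black lines are medians of all genes in 5 length classes, falling from 0.89 to 0.08. Dync2h1 and Cep290 sit at the far right, below the line.

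Within a group the cilium genes were often highest or lowest in the same embryo, and so were many other genes. The median coefficient of variation over the 44 genes was 8.01% in Disp1_WT, 9.42% in Disp1_CS_INDEL, 15.3% in Myo10_WT and 13.5% in Myo10_m1J. Cep290 in Disp1_WT was the most variable gene of the E9.5 wild types (45.7%). Myo10_m1J replicate 4 was the lowest of its group in 43 of the 44 genes (all genes 72.1%), and it also had the largest structural RNA share, 44.5%. After median-of-ratios scaling it was the lowest in 10 (all genes 25.5%). In Myo10_WT, replicates 1 and 2 both exceeded replicates 3 and 4 in 38 of 43 genes (88.4%, all genes 72.6%), and after scaling in 13 (30.2%, all genes 22.5%). At E9.5, Disp1_WT replicate 2 was the highest of its group in 34 of the 44 genes (all genes 47.9%) and Disp1_CS_INDEL replicate 4 the lowest in 31 (all genes 44.9%). After scaling they were so in 23 and 24 genes (all genes 28.7% and 31.4%). The mean log2(TPM + 1) of the 44 genes ran from 2.78 to 3.34 over the E8.5 embryos as deposited, and from 3.34 to 3.48 over all 17 embryos after scaling.

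**Figure D5:**
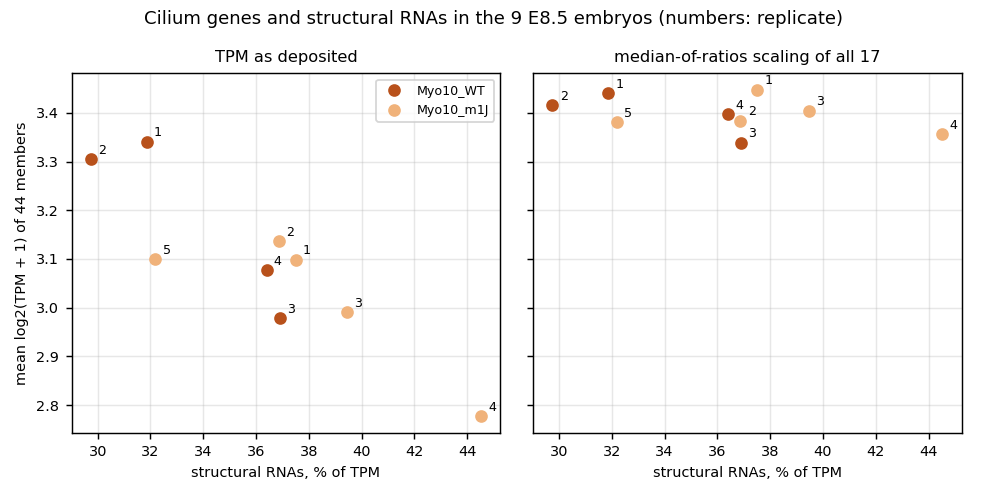
Mean log2(TPM + 1) of the 44 cilium genes against the structural RNA share of TPM in the 9 E8.5 embryos, as deposited (left) and after median-of-ratios scaling (right). Points are embryos, numbered by replicate. As deposited the mean runs from 3.34 in Myo10_WT replicate 1 (31.9%) down to 2.78 in Myo10_m1J replicate 4 (44.5%), and after scaling the same embryos lie within 3.34 and 3.45. Embryos of like share differ as deposited: Myo10_m1J replicate 5 (32.2%) has 3.10. At 36.9%, Myo10_WT replicate 3 has 2.98 and Myo10_m1J replicate 2 has 3.14.

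The rest of the cilium machinery was read from 6 further lists. In the Disp1, Myo10 and difference comparisons none of their genes was called as deposited, and at most 5 genes of a list had an unadjusted p under 0.05. The counts between the ages stand beside 69.4% of all genes higher and 10.2% lower as deposited, and 37.6% and 35.4% after median-of-ratios scaling, and nothing particular to a list is read from them. Of 16 other IFT, dynein-2 and BBSome genes 14 were higher as deposited and none lower (median 0.61), and 5 were higher and 4 lower after median-of-ratios scaling. Dynlt2b, a dynein-2 light chain, went from 3.53 ± 0.605 to 9.49 ± 0.978 TPM (1.22, rescaled 0.65), in the direction of Dync2li1. Of 18 other transition zone genes 14 were higher as deposited and none lower (median 0.95), and 12 were higher and 2 lower after scaling. B9d2, the partner of B9d1, went from 5.17 ± 0.128 to 27.05 ± 1.37 TPM (2.18, rescaled 1.58), and Tmem231 from 4.15 ± 1.02 to 12.1 ± 0.237 (1.36, rescaled 0.79). Of 27 basal body and ciliogenesis genes 17 were higher and 2 lower as deposited (median 0.58), and 11 each way after scaling.

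Of 10 tested cilium transcription factors 8 were higher at E9.5 as deposited and none lower, and 4 were higher and 1 lower after scaling. Glis2 went from 10.5 ± 1.26 to 55.2 ± 5.03 TPM (2.29, rescaled 1.66), Rfx4 from 4.20 ± 1.83 to 23.2 ± 1.94 (2.28, rescaled 1.69) and Rfx2 from 0.745 ± 0.223 to 4.06 ± 0.426 (1.54, rescaled 1.13). Rfx2 was at most 1.02 TPM in the E8.5 wild types and passed the level filter through the E9.5 group. Rfx3, named after its values were seen, was the gene called lower after scaling, with 9.90 ± 3.10 TPM at E8.5 and 9.44 ± 1.07 at E9.5 (-0.03 and not called as deposited, rescaled -0.63). Rfx5 and Rfx7, also named after their values were seen, were called higher as deposited (0.48 and 0.53) and had -0.07 and -0.09 rescaled, not called. Genes of motile cilia were low: 8 of the 25 measured ones passed the level filter, which a gene could pass through E9.5 alone, and all 8 were higher at E9.5, 4 of them after scaling. Foxj1, the master factor of motile cilia, went from 1.23 ± 0.530 to 5.67 ± 0.431 TPM and Tppp3, a tubulin-binding protein, from 1.23 ± 0.335 to 21.2 ± 4.23. Of 22 genes that transduce Hedgehog at the cilium 19 were higher as deposited and none lower (median 0.82), and 9 were higher and 4 lower after scaling. For comparison, 17 mitotic genes gave 10 higher and 2 lower as deposited (median 0.44), and 3 higher and 8 lower after scaling.

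In the Disp1 comparison 2.26% of all genes had an unadjusted p under 0.05. None of the 43 cilium genes did, and nothing particular to them is read from that. From the list of 22 Hedgehog genes, Ptch1, Gli1, Cdon and Gas1 had one, and they were named after their values were seen. Ptch1 went from 37.6 to 27.05 TPM (-0.46, limma adjusted p = 0.339), and after median-of-ratios scaling it was called, with -0.47 (adjusted p = 0.0491). Gli1, a transcriptional target of the pathway like Ptch1, had -0.50 and was not called. Cdon and Gas1, co-receptors, had 0.27 and 0.24, neither called. Gpr161 and Tulp3, the cilium genes nearest to the pathway's control, had 0.05 (interval -0.17 to 0.26) and -0.02 (-0.16 to 0.13) in the same embryos. In the Myo10 comparison 5 of the 22 Hedgehog genes had an unadjusted p under 0.05, where 6.8% of all genes did: Ptch1, Gli1, Gli2, Gli3 and Kif7, also named after their values were seen, with differences from -0.49 to -0.37, beside the all-gene median of -0.16. After median-of-ratios scaling these ran from -0.33 to -0.19, each with a limma adjusted p of 0.788.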

How the data were processed

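Whole mouse embryos (C57BL/6J, frozen singly) were profiled by RNA-seq. Per the labels' protocols, all RNA was purified in 1 round and a TruSeq RNA kit without strand marking made the libraries. The authors deposited 1 table of TPM values for 17 embryos, with gene symbols as row names, and the submitters' processing notes name the builds GRCm39 and mm39. The aligner or quantifier was not given in the sources used here. Without read counts, no counting intervals could be given. Each column matched 1 sample title, and groups came from the titles.

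Values were tested as log2(TPM + 1) with limma 3.58.1 (empirical Bayes with an intensity trend, two-sided, R 4.3.3) on all genes with at least 1 TPM in at least 4 libraries of the comparison, with Benjamini-Hochberg adjustment over those genes and a threshold of 0.05. Fits used the groups compared, and the difference of effects used all 17 embryos. Single genes were also compared by exact permutation tests (SciPy 1.17.1, Python 3.11.15). Intervals are 95%. The fits were checked on simulated data. Alternatives were a mean of at least 5 TPM, no filter, a pseudocount of 0.1, median-of-ratios scaling, leaving out 336 structural RNA, 37 mitochondrial and 8 globin symbols, no trend, 1 fit of all embryos, a replicate block and leaving out each embryo. Subtracting the all-gene median and the calls shared by 3 scalings were added after seeing the data.

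Every member's level is given. Full statistics are given for called members (at most 10, by smallest p), or for the 5 of smallest p where fewer than 5 were called, and, between the ages, for the 3 of largest fold each way. Of other lists at most 5 called genes could be named. The members and lists were chosen with earlier results of these data known. Promoter windows are RefSeq's on GRCm38.p6, and the motif spellings were picked with their counts in view. Lengths are the longest coding transcripts of GENCODE vM21. A result on a gene of the Hedgehog list is not reported here.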

Additional observations from a re-analysis of the deposited data

Results flagged for a closer look

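In 7 of the 176 sets of values checked (44 genes in 4 groups), 1 embryo stood far from the others of its group. Chance alone gives such a gap in about 1 of 20 sets, or 8.8 of 176.

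Disp1_WT replicate 2 stood high for Ift80 (8.14 TPM, the others 7.19 to 7.34) and for Bbs2 (11.7 TPM, the others 10.3 to 10.4). Disp1_CS_INDEL replicate 2 stood high for the IFT-B GTPase Ift27 (40.1 TPM, the others 28.6 to 29.6) and low for Arl13b (9.10 TPM, the others 10.9 to 11.0). Myo10_m1J replicate 2 stood high for Kif3a (12.8 TPM, the others 8.44 to 9.65). Myo10_m1J replicate 4, the embryo with the largest structural RNA share, stood low for Bbs9 (2.95 TPM, the others 3.69 to 3.81) and for Ofd1 (8.44 TPM, the others 10.4 to 10.9).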

How the results depend on the processing

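With median-of-ratios scaling, the Myo10 median over the cilium genes moved to 0.00921 and that of the difference of effects to 0.0173. Between the ages the same scaling gave 17 higher and 16 lower with a median of 0.0726, and 11 genes with all E9.5 embryos above all E8.5 embryos. Leaving out structural RNA, mitochondrial and globin genes gave 18 higher and 10 lower with a median of 0.1804. A mean of at least 5 TPM left 1 lower gene, since it takes Cep290 out. The genes given with full statistics kept their call and sign under every setting that tested them, and limma adjusted p ran from 0.0828 to 0.834 for those of the Myo10 comparison. Leaving out each embryo in turn, no gene was called in the Disp1, Myo10 and difference comparisons, whose medians ran from -0.00158 to 0.0709, from -0.216 to -0.0842 and from 0.104 to 0.256. Between the ages 29 to 33 genes were higher and 2 lower, with medians from 0.564 to 0.770. The Disp1 median was lowest without Disp1_CS_INDEL replicate 2 and highest without Disp1_WT replicate 2. The Myo10 median was -0.0842 without Myo10_m1J replicate 4, where the difference of effects had 0.104, and -0.0960 without Myo10_WT replicate 1. With the replicate block no gene was called in the Disp1, Myo10 and difference comparisons (medians 0.0235, -0.164 and 0.206), and 33 were higher and 2 lower between the ages. The deviations of same-numbered embryos had correlations from -0.287 to 0.463. With so few embryos these cannot show whether the numbers mark pairs, and the labels do not say. TPM hides depth, and levels under about 1 TPM, such as Kif17, carry no test.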

Other observations

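Of the basal body and ciliogenesis genes, 5 of 27 had an unadjusted p under 0.05 between Myo10_m1J and wild-type embryos, all lower in the mutants, where 6.8% of all genes had such a p, and none was called (limma adjusted p = 0.473 for each). Cep131 of the centriolar satellites was 13.3 ± 3.50 TPM in the wild types and 9.49 ± 1.98 in the mutants, and Ccp110, the cap of the mother centriole, 14.2 ± 2.95 and 10.7 ± 1.74. After median-of-ratios scaling their differences shrank from -0.43 to -0.26 and from -0.38 to -0.21. The remaining 3 were Cep89, Kif7 and Rab11fip3, and all 5 were named after their values were seen. Between the ages, Cep131 was also among the basal body genes that rose, with 1.55 as deposited and 0.91 rescaled, and Poc1b, a centriole protein, had 1.54 and 0.91.

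In the Disp1 comparison the motile cilium gene Cfap126 went from 3.18 ± 0.292 to 2.31 ± 0.334 TPM and the transcription factor Glis3 from 2.70 ± 0.253 to 3.32 ± 0.256 TPM. Both had an unadjusted p under 0.05 and a limma adjusted p of 1.00, and both were named after their values were seen.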
